A study of Mus musculus with 16 samples.

Results

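The genes of the cytosolic ribosomal proteins were followed across regulatory T cells (Tregs) and conventional CD4 T cells (Tconv) of mice with either of 2 Foxp3 reporter alleles. Members were all annotated genes whose symbol starts with Rpl or Rps and a digit, without the Rps6k kinases, plus Rplp0, Rplp1, Rplp2 and Rpsa. The rule found 75 of the 17097 genes that had a probe set listed for 1 gene. By name they were 41 proteins of the large subunit, 24 of the small subunit, 6 paralogs, 3 pseudogenes and Rps19bp1, which encodes a binding partner of Rps19 and no ribosomal protein. The large and small subunit genes are called core genes here. Each gene was represented by its probe set with the highest mean over the 16 arrays, and 35 members had more than 1 probe set. Of the 75, 73 passed the filter on low values, which asked for at least 4 arrays above a log2 value of 5; Rpl3l and Rps15a did not. A list of the ribosomal proteins held 46 large and 31 small subunit genes. Those not among the 75 are not analysed here, among them Rpl5, Rpl38, Rps3, Rps27 and Rps27a. Rpl5 and Rps3 fit the rule on symbols but had only probe sets listed for several genes, which were left out.

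All cells came from spleens of NOD/LtJ mice aged 6 weeks, with 4 arrays in each of 4 groups. WT Tregs and WT Tconv carried the transgene Tg(Foxp3-EGFP/cre)1aJbs, in which Foxp3 sequences drive a fusion of EGFP and Cre; the WT cells are thus reporter cells too. KI Tregs and KI Tconv carried Foxp3tm2Ayr, an allele at Foxp3 itself that encodes a fusion of GFP and Foxp3. Nothing in the labels ties the arrays of a group to different animals; p-values measure only the spread between these samples, which may be technical. The labels give 1 gate for every sample, CD3+ CD4+ GFP-, which leaves unclear how Tregs were gated. Foxp3 lay at log2 9.39 to 10.2 in the samples labelled as Tregs and at 3.57 to 4.96 in those labelled as Tconv. The 8 listed Treg markers were higher in Tregs in both genotypes. Of these, Foxp3 and Il2ra (3.39 to 4.13 in Tconv) passed the filter on low values only through Tregs. The sizes of their differences are therefore uncertain. Sample numbers in the titles run from 4 to 9 for WT and from 13 to 23 for KI, and only numbers 24 to 27 hold 1 array of each group. Genotype and number range therefore cannot be told apart outside those arrays.

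A ribosome joins a small subunit, which reads the mRNA, to a large subunit, which forms the peptide bond, and each subunit carries 1 copy of most of its proteins. Ribosomal protein mRNAs are among the most abundant of a cell, and most begin with a C and a run of pyrimidines, the 5′ terminal oligopyrimidine (TOP) tract, through which mTOR and Larp1 control their translation. T cells raise ribosome production when they are activated and grow, and Tregs in the body are known for high mTOR activity and frequent division. A change of translation by the TOP tract need not change the mRNA level that an array measures.

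The start regions are shown for the letters that a TOP tract needs, in core genes and in paralogs. RefSeq promoter windows (GRCm38.p6) were matched for 59 members, 51 of them core genes. Below, each line gives 30 bases, 15 before and 15 from the annotated start, on the strand of the gene; capitals mark an unbroken run of C and T that opens with a C at the start base. The first 4 are core genes with long runs, the next pair are core genes discussed below, and the last 4 are paralogs.
Rps6 (chr4:86857353-86857382, minus strand): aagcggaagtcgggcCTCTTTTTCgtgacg
Rpl15 (chr14:18270972-18271001, minus strand): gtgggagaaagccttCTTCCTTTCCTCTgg
Rpl35 (chr2:39005117-39005146, minus strand): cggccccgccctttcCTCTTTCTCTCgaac
Rpl28 (chr7:4792950-4792979, plus strand): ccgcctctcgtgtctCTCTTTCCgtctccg
Rpl14 (chr9:120571502-120571531, plus strand): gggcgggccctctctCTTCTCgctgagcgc
Rps21 (chr2:180257364-180257393, plus strand): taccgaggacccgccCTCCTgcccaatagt
Rpl22l1 (chr3:28805493-28805522, plus strand): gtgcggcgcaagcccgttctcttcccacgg
Rps27l (chr9:66946071-66946100, plus strand): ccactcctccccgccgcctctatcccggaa
Rpl36al (chr12:69184053-69184082, minus strand): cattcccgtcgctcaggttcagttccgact
Rpl7l1 (chr17:46782642-46782671, minus strand): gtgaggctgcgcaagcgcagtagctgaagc

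A C at the annotated start followed by at least 4 pyrimidines was present in 11 of 60 core windows (18.3%), in 0 of 8 paralog windows and in 823 of all 32851 windows (2.51%). An annotated start can lie some bases from the start a cell uses, which moves the C. A looser search asked for a run of at least 8 pyrimidines within 50 bases on either side of the start. It was met by 81.7% of core windows, 62.5% of paralog windows and 35.7% of all windows. The motif AAGATGGC, the core of a YY1 site, was searched on both strands of the whole window (250 bases before to 50 after the start). It was present in 6 of 60 core windows (10.0%), which belong to 4 of the 51 core genes. It was present in 1 of 8 paralog windows (12.5%) and in 903 of all 32851 windows (2.75%). Windows of 1 gene can overlap and count the same site again. These matches describe letters and were not tied to any array value.

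The core genes were among the brightest features of the arrays. Their mean log2 values ran from 7.22 (Rpl14) to 13.65 (Rps29) with a median of 13.09, against a median of 7.86 for all 8139 genes kept. A mean above 12 was reached by 62 of the 64 core genes kept (96.9%) and by 1.55% of all genes, and 59 core genes stood among the 100 brightest. Rps29, Rps14 and Rps6, the target of the S6 kinases, were the brightest members. Because probe sets differ in efficiency, these signals do not rank the mRNAs by amount. The brightest value on any array was 13.89, so most core genes lay near the top of the scale; whether differences are compressed there was not tested. Core genes also varied little: their 4 group means spanned a median of 0.090 on the log2 scale, against 0.30 for all genes, and their SD within a group had a median of 0.051, against 0.14.

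In both genotypes most ribosomal protein genes were slightly lower in Tregs than in Tconv. The mean of the 64 core genes was 12.84 ± 0.029 in WT Tregs and 12.91 ± 0.017 in WT Tconv (log2, SD, n = 4). In KI cells it was 12.85 ± 0.033 in Tregs and 12.93 ± 0.019 in Tconv. The 4 Treg arrays of WT spanned 12.82 to 12.88 and the 4 Tconv arrays 12.90 to 12.93; the KI arrays spanned 12.82 to 12.89 and 12.90 to 12.95. Within each genotype the arrays did not overlap. Array medians ran from 3.69 to 3.76, a spread of the same order as this difference. In sorted bulk samples fewer cells of a type and less RNA per cell cannot be told apart.

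**Figure D1:**
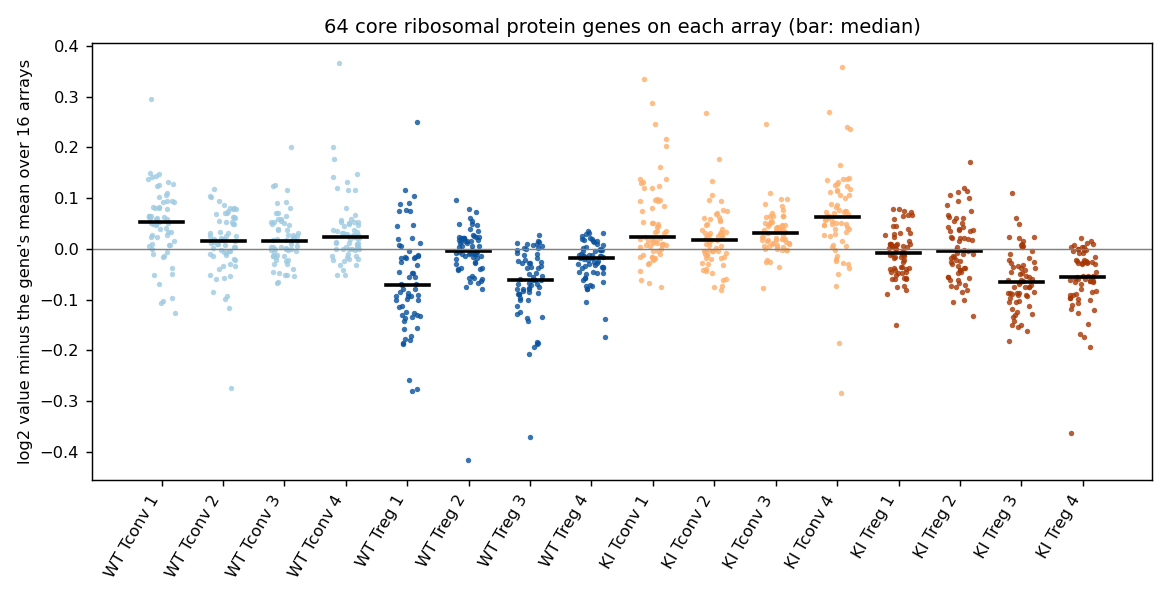
Each point is 1 of the 64 core genes on 1 array, as its log2 value minus that gene's mean over the 16 arrays (vertical axis); bars are medians per array and colours are the 4 groups. All 8 Treg medians lie below 0 and all 8 Tconv medians above it, with wide overlap of the single genes.

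In WT cells, with 1 probe set per gene, the share of falls among members was that of the background. Of the 73 members, 0 rose and 13 (17.8%) fell in WT Tregs against WT Tconv (limma, adjusted p under 0.05 by Benjamini-Hochberg over 8139 genes). Of all genes tested 34.6% passed, 16.7% higher and 17.9% lower. What was uneven was the direction: 61 members had a negative difference and 12 a positive one, and the median difference was -0.060, a 0.960-fold level. Over all genes 4410 differences were negative and 3729 positive, with a median of -0.025. The arrays of both groups did not overlap for 14 lower members (19.6% of all genes) and for 0 higher members (17.6%). These counts use 1 probe set per gene. Among all 127 kept probe sets of members, 28 fell in WT and 29 in KI cells, where 15.7% and 18.9% of all probe sets fell. The rises, 2 in WT and 4 in KI cells, compare with 14.7% and 18.3% of all probe sets. They were a second probe set of Rpl13, by 0.83 and 0.86 (limma, adjusted p = 3.2e-06 and 1.6e-06), and probe sets of Rps27l. These probe sets, and the dim ones named with Rpl14, were picked out after their values were seen. The Rpl13 probe set averaged 8.13, while the one used for that gene averaged 13.02 and had differences of -0.086 and -0.046. By subunit, 5 of 41 large subunit genes (median -0.051) and 5 of 23 small subunit genes (median -0.073) fell.

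Most differences were negative in KI cells too. In KI Tregs against KI Tconv 3 members rose (4.11%, background 21.2%) and 16 fell (21.9%, background 19.9%), where 41.1% of all genes passed. There were 65 negative and 8 positive differences and a median of -0.068. The median of all genes was -0.017. Among core genes 7 of 41 in the large subunit and 6 of 23 in the small subunit fell, and only Rpl24 rose. The arrays did not overlap for 20 lower members (17% of all genes) and 2 higher ones (17.7%). With each array's median subtracted, 1 member rose and 31 fell in KI cells, where 20.2% of all genes rose and 23.6% fell. After another quantile normalisation the members' median was -0.030 and that of all genes -0.062, and in WT cells -0.036 and -0.043, so the members' place below the median of all genes depends on the scaling in both genotypes.

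The WT and KI comparisons share no array, but they come from 1 fit with a shared spread per gene, so their calls are not independent. In both, 10 members fell: Rpl8, Rpl12, Rpl14, Rpl22l1, Rpl31-ps12, Rpl36al, Rplp1, Rps16, Rps21 and Rps28. They are 76.9% of the WT falls and 62.5% of the KI falls, where the shared falls of all genes are 76.8% and 69.1%, so the sharing is not above the background. Both differences were negative for 58 of 73 members and for 3640 of all 8139 genes. Across the 73 members the WT and KI differences correlated with Pearson's r of 0.848 and Spearman's rho of 0.803, against 0.936 and 0.855 over all genes; the genes are not independent, and both axes use the same probe sets. Of the members, 51 passed in neither genotype, as did 4291 of all genes.

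**Figure D2:**
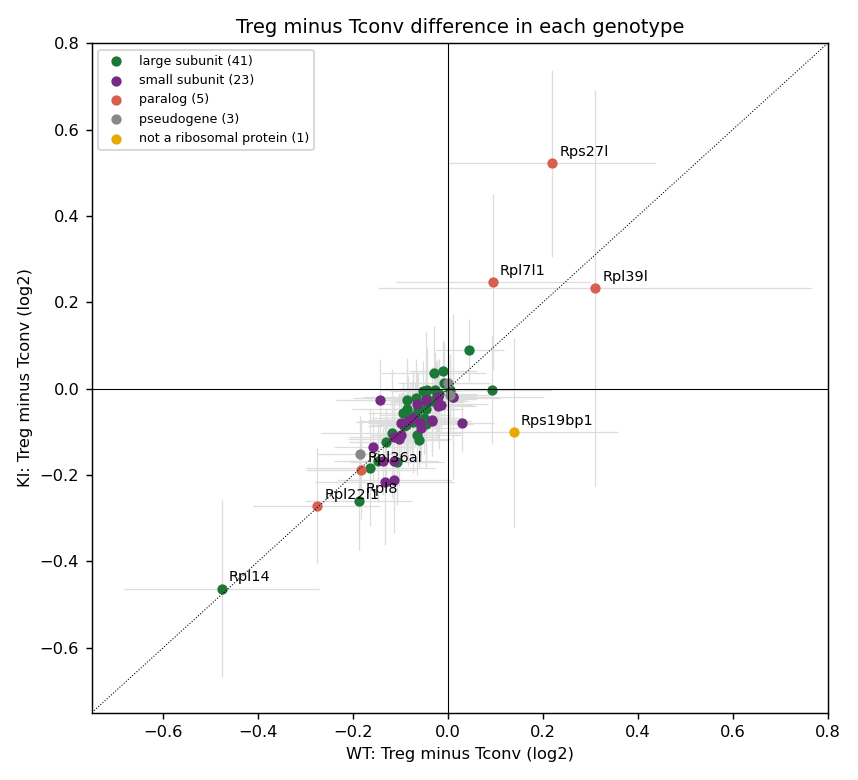
Each point is 1 of 73 members, placed by its Treg minus Tconv difference (log2) in WT (horizontal) and KI cells (vertical), with 95% intervals in grey and equality dotted. Core genes crowd just below 0 on both axes, and Rpl14 and Rpl22l1 lie lowest. The paralogs Rps27l, Rpl7l1 and Rpl39l lie highest on the KI axis. On the WT axis Rps19bp1 lies above Rpl7l1.

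Rpl14, a large subunit protein, had the largest fall in both genotypes among the probe sets used. Dim probe sets of other members, not used for them, fell more, such as one of Rps13 with a mean of 8.21 (-0.66 and -0.70) and one of Rpl9 with a mean of 6.28 (-0.65 and -0.67). Its log2 values were 6.95, 6.81, 6.85 and 7.05 in WT Tregs and 7.52, 7.23, 7.22 and 7.59 in WT Tconv. They were 7.07, 7.15, 7.16 and 6.86 in KI Tregs and 7.56, 7.49, 7.47 and 7.58 in KI Tconv. Every Treg array lay below every Tconv array. The difference was -0.48 ± 0.098 (SE, adjusted p = 0.00090 in limma) in WT and -0.46 ± 0.098 (adjusted p = 0.00097) in KI cells, about 0.719-fold and 0.726-fold. This probe set had a mean of only 7.22, while 4 probe sets shared by Rpl14 and the pseudogene Rpl14-ps1, which are not used here, averaged 12.2 to 12.5.

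Rpl8, which lies at the peptidyl transferase centre of the large subunit, was next among core genes. It measured 12.08, 12.32, 12.21 and 12.26 in WT Tregs and 12.36, 12.34, 12.46 and 12.45 in WT Tconv. The KI values were 12.26, 12.28, 12.15 and 12.23 in Tregs and 12.55, 12.39, 12.44 and 12.57 in Tconv. No Treg array reached a Tconv array. The difference was -0.19 ± 0.054 in WT (limma, adjusted p = 0.011) and -0.26 ± 0.054 in KI cells (adjusted p = 0.00086). Both held in all 29 alternative fits. Rpl8 has 1 probe set, so the fits that change the choice of probe set could not alter its values.

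Rps21, a small subunit protein, measured 13.07, 13.13, 13.02 and 13.14 in WT Tregs and 13.26, 13.24, 13.22 and 13.28 in WT Tconv, and fell by 0.16 ± 0.039 on the log2 scale (limma, adjusted p = 0.0038). Its KI values were 13.14, 13.08, 13.02 and 13.08 in Tregs and 13.14, 13.19, 13.22 and 13.30 in Tconv, a difference of -0.13 (adjusted p = 0.010). The WT groups were well apart, and the KI groups nearly touched. Rps16 fell by 0.14 in WT and by 0.17 in KI cells (limma, adjusted p = 0.0070 and 0.0013). Rpl12 and Rplp1 belong to the stalk region that engages elongation factors. Rpl12 had differences of -0.15 and -0.17, and Rplp1 of -0.13 and -0.12. Rps28 completed the shared core falls with -0.099 and -0.11.

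Other core genes passed in 1 genotype only, which does not show that the genotypes differ. Rpl27a, Rps20 and Rps24 passed in WT alone, at -0.095, -0.14 and -0.098, and had KI differences of -0.056, -0.026 and -0.079. Their calls were lost in 11 of 29, 7 of 28 and 12 of 29 alternative fits. Rps24 turned to 0.034 with the probe set of largest variance. In KI cells alone Rpl22, Rpl23, Rpl31, Rps12, Rps19 and Rps25 fell, by 0.12 (Rpl23) to 0.22 (Rps25) on the log2 scale; all 6 had negative WT differences, from -0.060 (Rpl23) to -0.16 (Rpl22). The KI call of Rpl22 was lost in 9 of 29 alternative fits. The lists also depend on the probe set. With every probe set fitted, others of Rpl22, Rpl23 and Rpl31 fell in WT (-0.42, -0.13 and -0.16, limma adjusted p = 0.0012, 0.039 and 0.011). Another of Rps24 fell in KI cells (-0.16, adjusted p = 0.033). Others of Rps12 did not pass in WT, nor others of Rps20 in KI cells. These were looked up after the calls were known. Rps25 measured 12.50, 12.51, 12.41 and 12.50 in KI Tregs and 12.85, 12.66, 12.65 and 12.63 in KI Tconv, without overlap. Rpl24 was the core gene that rose in KI Tregs, by 0.089 (limma, adjusted p = 0.045), and its call was lost in 19 of 29 alternative fits. None of these had an interaction that passed.

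**Figure D3:**
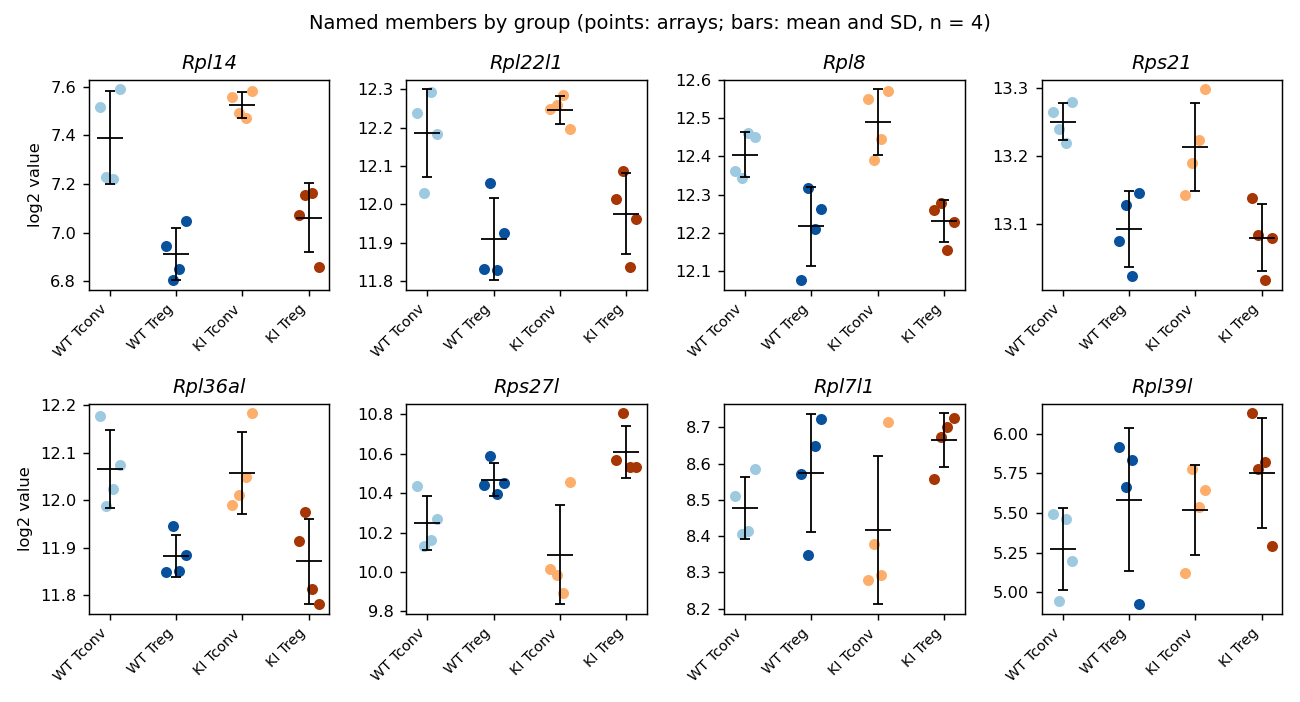
Log2 values of 8 named members in the 4 groups; points are arrays, and the black bars give the mean and SD (n = 4). Axes differ between panels and do not start at 0. Rpl14, Rpl22l1, Rpl8, Rps21 and Rpl36al are lower in Tregs of both genotypes, while Rps27l is highest in KI Tregs.

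Of the paralogs a pair fell in both genotypes and another pair rose in KI Tregs. Rpl22l1 is the paralog of Rpl22, a protein needed for T cell development that represses its own paralog. Rpl22l1 measured 11.83, 12.06, 11.83 and 11.92 in WT Tregs and 12.24, 12.03, 12.29 and 12.18 in WT Tconv, with 1 Tconv array inside the Treg range. It measured 12.01, 12.09, 11.84 and 11.96 in KI Tregs and 12.25, 12.26, 12.28 and 12.20 in KI Tconv, without overlap. The differences were -0.28 ± 0.064 and -0.27 ± 0.064 (limma, adjusted p = 0.0024 and 0.0022), and both held in all 29 alternative fits. Rpl22l1 also has 1 probe set, so the choice of probe set could not alter its values. Rpl22 itself was lower by the probe set used as well, with differences of -0.16 in WT (limma, adjusted p = 0.059) and -0.18 in KI cells (adjusted p = 0.031). The other kept probe set of Rpl22, with a mean of 8.16, gave the reverse pattern of calls. It had -0.42 in WT (limma, adjusted p = 0.0012) and -0.12 in KI cells (adjusted p = 0.30). Rpl36al, an intronless relative of Rpl36a, fell by 0.18 in WT and by 0.19 in KI cells (limma, adjusted p = 0.014 and 0.011). Rpl36a had differences of -0.12 and -0.10 and passed in neither (adjusted p = 0.22 and 0.26).

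Rps27l, a relative of Rps27 that is a target gene of p53, was the member with the largest rise. Its values were 10.57, 10.80, 10.53 and 10.53 in KI Tregs and 10.02, 9.98, 9.90 and 10.46 in KI Tconv. In WT they were 10.44, 10.59, 10.40 and 10.45 in Tregs and 10.44, 10.13, 10.16 and 10.27 in Tconv. The KI groups did not overlap, although KI Tconv 4 lay far above the other KI Tconv arrays, and the WT groups overlapped. The difference was 0.52 ± 0.10 in KI cells (limma, adjusted p = 0.00050) and 0.22 ± 0.10 in WT cells (adjusted p = 0.11). Within the KI arrays numbered 13 to 23 it was 0.67, and between the single KI arrays numbered 24 to 27 it was 0.076. All 3 probe sets gave it the same sign, with KI differences from 0.52 to 0.59 and WT differences from 0.22 to 0.34. The difference between genotypes, an interaction of 0.30 ± 0.15, did not pass (limma, adjusted p = 0.61).

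Rpl7l1, a relative of Rpl7, measured 8.56, 8.67, 8.70 and 8.72 in KI Tregs and 8.28, 8.38, 8.29 and 8.72 in KI Tconv, where the last array lay among the Tregs. Its rise of 0.25 ± 0.097 passed narrowly (limma, adjusted p = 0.0498) and was lost in 19 of 29 alternative fits. Rpl7 had differences of -0.046 in WT and -0.031 in KI cells. Rpl39l, a paralog known from the testis, averaged only 5.53 and had differences of 0.31 ± 0.22 and 0.23 ± 0.22, which did not pass; Rpl39 had -0.046 in each. Rpl3l, a paralog of striated muscle, lay at 2.37 to 2.71 on all arrays and was not tested, whereas Rpl3 averaged 13.17. Rps15a averaged 4.73 by its probe set, while the probe set listed for its pseudogene Rps15a-ps6 averaged 13.12. Rpl31-ps12 fell in both genotypes, by 0.19 and 0.15 on the log2 scale, where Rpl31 had -0.11 in WT (limma, adjusted p = 0.090) and -0.17 in KI cells. Probes listed for a pseudogene can read its parent gene, so neither pseudogene value can be assigned with certainty.

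Most members of the fixed set had no difference that passed. Rplp0, the stalk protein often used as a reference gene, measured 13.01 to 13.19 in WT Tregs and 13.20 to 13.25 in WT Tconv, a difference of -0.085 (limma, adjusted p = 0.13), and had -0.026 in KI cells. Rps6 had 0.010 and -0.020, and Rpl11, which binds Mdm2 when ribosome assembly fails, had -0.0083 and 0.013. Rpsa, also described as a laminin receptor, had -0.073 and -0.068, and Rps4x, encoded on the X chromosome, -0.060 and -0.080. Rps19, mutated in Diamond-Blackfan anaemia, measured 12.80, 12.72, 12.57 and 12.73 in WT Tregs and 12.83, 12.78, 12.83 and 12.84 in WT Tconv, where 1 Treg array reached the Tconv range (-0.11, adjusted p = 0.052). In KI cells it fell by 0.17 on the log2 scale (limma, adjusted p = 0.0047).

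No member passed the test between the genotypes. In KI against WT Tregs 0 of 73 members passed (background 2.84%, of which 1.99% higher and 0.848% lower), and 0 had an unadjusted p under 0.05, against 1347 of all 8139 genes; the lowest adjusted p was 0.39 (Rps3a1, limma). That background is itself unstable: it was 7.02% without KI Treg 4, 1.24% without KI Treg 1 and 0.356% with the 3 number ranges as a block, with 0 members called in each of these fits. In KI against WT Tconv 0 of 73 passed (background 0.135%), again with 0 at an unadjusted p under 0.05 (480 of all genes) and a lowest adjusted p of 0.83. Arrays of both genotypes did not overlap for 0 higher (5.12% of all genes) and 1 lower member (3%) in Tregs, and for 2 higher (2.75%) and 0 lower (0.983%) in Tconv. Differences of the core genes ran from -0.056 (Rpl13a) to 0.15 (Rpl14) in Tregs and from -0.073 (Rps20) to 0.14 (Rpl14) in Tconv, with medians of 0.0068 and 0.0068. The 95% intervals reached from -0.17 (Rpl37a) to 0.36 (Rpl14) in Tregs and from -0.17 (Rps20) to 0.34 (Rpl14) in Tconv, and their median half-width was 0.082. For the core genes the intervals thus leave room for a KI level up to 1.28-fold higher or 1.12-fold lower in Tregs. They are wider for the dim paralog Rpl39l, whose upper bounds were 0.63 and 0.70.

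No member passed the test of the interaction either. The interaction, which is the KI difference less the WT difference, passed for 0 of 73 members (background 0.786%, of which 0.663% higher and 0.123% lower), and 1 member, Rps3a1, had an unadjusted p under 0.05 (-0.11 ± 0.045, limma adjusted p = 0.48). With arrays weighted by quality, 1 member passed in KI against WT Tregs (background 21.1%) and 1 in the interaction (background 5.57%). Within the arrays numbered 24 to 27, with 1 array per group and no test, the core median of KI minus WT was -0.027 in Tregs and 0.050 in Tconv. The Treg minus Tconv core median was -0.073 in WT numbers 4 to 9, -0.045 in the WT pair of the last range, -0.046 in KI numbers 13 to 23 and -0.11 in the KI pair.

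**Figure D4:**
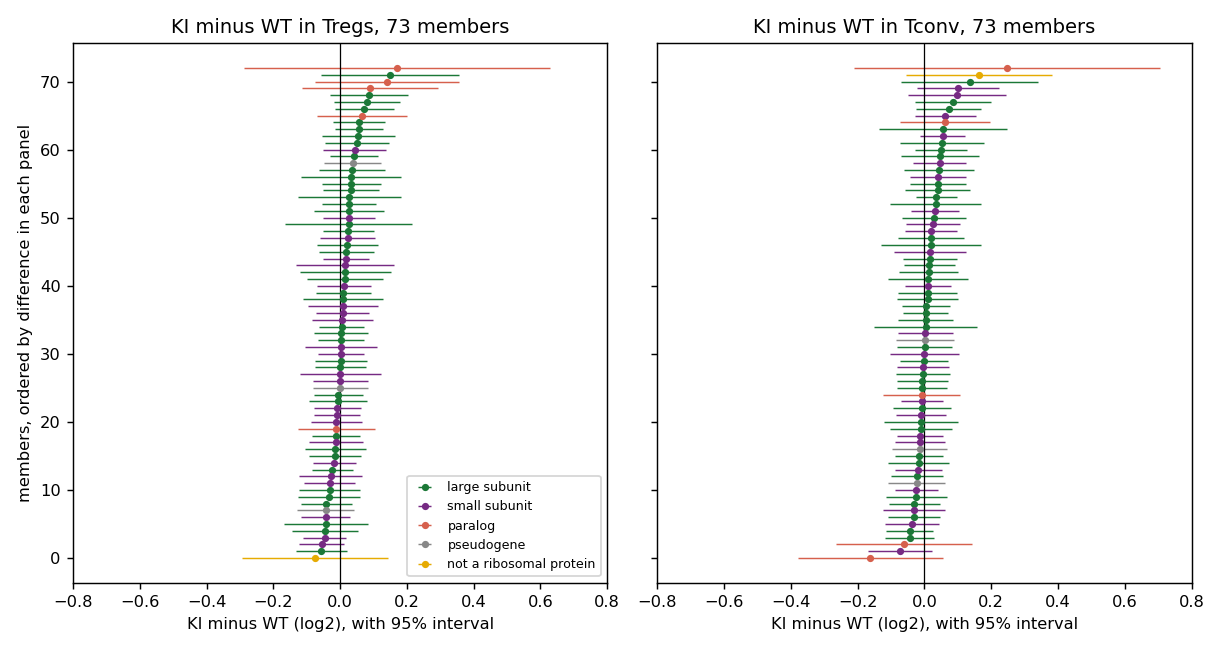
KI minus WT difference (log2, horizontal) of each of 73 members with its 95% interval, in Tregs (left) and Tconv (right), ordered by size within each panel; the vertical line is 0. Core genes lie within 0.15 of 0, and the interval of the paralog Rpl39l is the widest in each panel.

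Many genes that build ribosomes were lower in Tregs. Of 80 kept genes for ribosome biogenesis (rRNA transcription, processing and subunit assembly), 1 rose and 33 fell (41.3%) in WT Tregs, and 0 rose and 41 fell (51.3%) in KI Tregs, where all genes gave 17.9% and 19.9%. Their median differences were -0.19 and -0.21. Utp20, a processome component, fell by 0.70 and 0.57 on the log2 scale, and Wdr46 fell by 0.55 and 0.73. Bysl, which helps mature the small subunit, measured 6.93 to 7.28 in WT Tregs and 7.64 to 7.76 in WT Tconv, and 7.12 to 7.43 against 7.84 to 7.90 in KI cells; the groups were apart in both. The riser in WT was Ubtf (0.34), a factor of rRNA transcription; it was named after its value was seen. Between KI and WT Tregs 0 of the 80 passed (2.84% of all genes), with 8 at an unadjusted p under 0.05 (1347 of all 8139 genes). Without KI Treg 4 there was 1 call, where 7.02% of all genes were called.

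Of 71 kept mitochondrial ribosomal protein genes, which serve a separate ribosome, 5 rose (7.04%) and 6 fell (8.45%) in WT, below the 16.7% and 17.9% of all genes. In KI cells 9 rose (12.7%) and 7 fell (9.86%), against 21.2% and 19.9%, and the medians were -0.044 and -0.042. Mrps6 rose by 0.72 and 0.89 and Mrps18b fell by 0.38 and 0.47 on the log2 scale. Of 8 genes listed with the elongation factors, 2 rose and 3 fell in WT (62.5% passed, 34.6% of all genes). In KI cells 2 rose and 2 fell (50% passed, 41.1% of all genes). The risers in both genotypes were Eif5a and Eef2k, and Eef2k is a kinase rather than an elongation factor. Eef1b2 and Eef1g, whose mRNAs also carry TOP tracts, had differences of -0.15 and -0.15 in WT and of -0.20 and -0.21 in KI cells. Eef2k, the kinase that inhibits Eef2, rose by 0.73 and 1.07. Of 27 initiation factor genes 3 rose and 3 fell in WT (22.2% passed), and 1 rose (Eif4h, 0.25) and 1 fell (Eif5, -0.25) in KI cells (7.41% passed), both below the shares of all genes. These small counts moved with single arrays: in WT, elongation factors had 3 calls without WT Treg 1 or 2 and 2 without WT Tconv 4, and initiation factors had 3 without WT Tconv 1, while in KI cells initiation factors had 4 without KI Treg 4.

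Of 28 kept genes of mTOR signalling and TOP control, 4 rose and 6 fell in WT and 6 rose and 5 fell in KI cells; the shares that passed, 35.7% and 39.3%, are near the 34.6% and 41.1% of all genes. Rragd, a Rag GTPase that brings mTORC1 to the lysosome, averaged 6.67 in WT Tregs and 4.18 in WT Tconv, a difference of 2.49 ± 0.18 (limma, adjusted p = 2.6e-09), and 2.18 in KI cells. All Tconv values of Rragd lay below the filter value of log2 5 (3.84 to 4.56 in WT, 3.91 to 4.37 in KI cells). Rragd thus passed the filter only through Tregs, and the size of its difference is uncertain. Eif4ebp1, an inhibitor of cap-dependent initiation, rose by 0.81 and 0.89, and Rictor, of mTORC2, fell by 0.68 and 0.55 on the log2 scale. Of 7 genes of the MYC network, kept from 11 listed, 3 rose (42.9%) and 0 fell in each genotype. Over all genes 16.7% rose in WT and 21.2% in KI cells, and a list this short gives only a rough share. The risers were Mxd1 (1.46 and 1.78), Mxd4 (1.06 and 0.96) and Mxi1 (0.31 and 0.73), all of which compete with MYC for its partner MAX. Myc itself had 0.22 in WT (limma, adjusted p = 0.083) and averaged 9.44 in KI Tregs and 9.37 in KI Tconv. It passed in neither genotype. Mdm4, an inhibitor of p53, was lower by 0.34 and 0.30 and was 1 of 2 genes kept on the list for p53 and free ribosomal proteins. Between KI and WT Tregs Sesn3 of the mTOR list (-0.45, limma adjusted p = 0.022) and Mrpl4 and Mrpl54 (0.45 and 0.62, adjusted p = 0.012 and 0.030) passed, which is 3.57% and 2.82% of their lists against 2.84% of all genes. These calls rest on single arrays. The mTOR count of 1 became 0 without WT Treg 1, 3 or 4 or KI Treg 1 or 2 and became 2 without KI Treg 3 or 4. The mitochondrial count of 2 became 0 without WT Treg 1 or KI Treg 1, 1 without WT Treg 3 or 4 or KI Treg 2, and 6 without KI Treg 4.

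**Figure D5:**
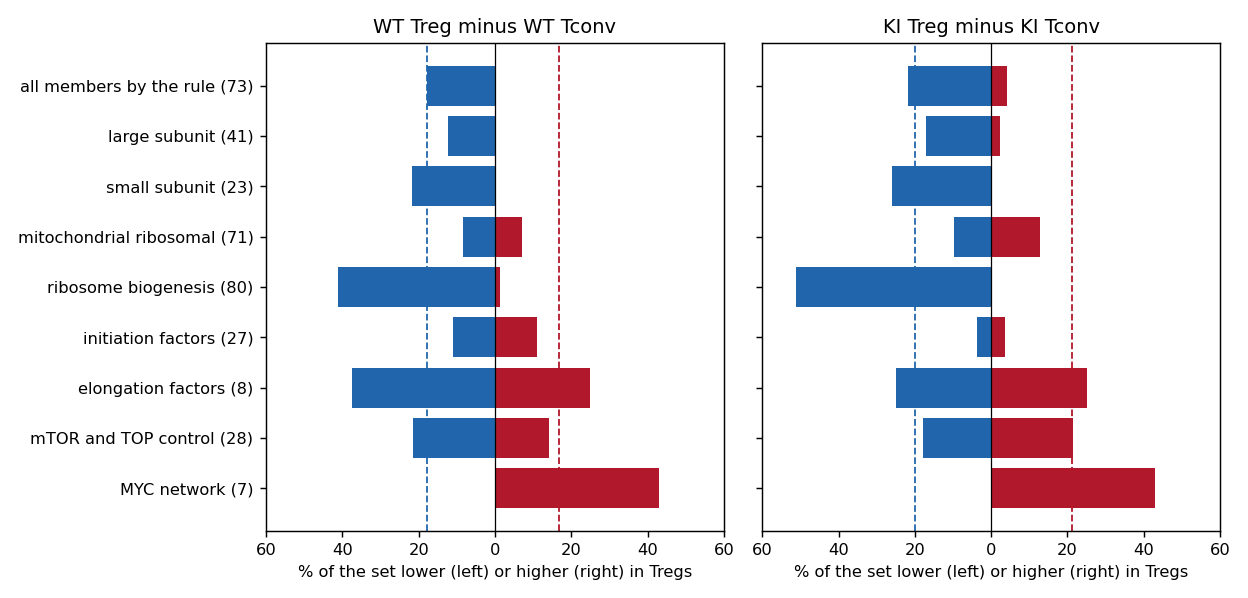
Share of each set (%, horizontal) that was lower (left, blue) or higher (right, red) in Tregs at an adjusted p under 0.05, in WT and KI cells, with the number of kept genes in brackets; dashed lines are the shares over all 8139 genes. Ribosome biogenesis reaches 41.3% and 51.3% lower, while ribosomal protein members stay near the dashed line for falls and far below the one for rises.

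Some markers of other cells differed between Tregs and Tconv. The mean of both CD8 T cell markers was 6.11 to 6.45 in WT Tregs and 4.80 to 5.19 in WT Tconv. Of the 2, 1 (Cd8a, 6.43 and 4.08 in WT) passed in each genotype. Its Tconv values all lay below the filter value of log2 5 (3.65 to 4.29 in WT, 3.92 to 4.61 in KI cells). Cd8a thus passed the filter only through Tregs. Both dendritic cell markers kept were higher in Tregs. Of B cell markers kept 1 of 5 was higher in Tregs of each genotype, of monocyte markers 1 of 4 in WT and 2 of 4 in KI cells. Of NK markers 1 of 3 was higher and 2 of 3 lower, and of plasma cell markers 1 of 2 was higher. Of T cell markers 1 of 7 was higher, with 2 lower in WT and 1 in KI cells. Over all genes 16.7% were higher and 17.9% lower in WT Tregs, and 21.2% and 19.9% in KI Tregs. Single calls in lists this short cannot be told from those shares. Of neutrophil markers 0 of 5 passed, but their mean ran from 3.36 to 6.66 over the arrays. The part of such cells in the ribosomal protein differences was not tested.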

How the data were processed

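The authors deposited log2 values of 45141 probe sets on 16 Affymetrix arrays. RMA and Partek 6.5 are named in the submitters' processing notes; the options are not given in the sources used here. RNA was extracted with TRIZOL straight after the sort, per the labels' protocols. Probe sets were named through the platform annotation and Entrez identifiers. Left out were 15 probe sets listed for several genes, among them a gene that fits the rule on symbols. The 8139 genes above log2 5 on 4 or more arrays were fitted with limma 3.58.1 in R 4.3.3, with 1 mean per group and a variance trend, after the script was tested on simulated data. P-values are two-sided. Precision is limited by the number of arrays.

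The members and gene lists were chosen with earlier results of these data known. Genes named are, per comparison, the 5 largest rises and 5 largest falls among members that passed, members that failed the filter, the 3 brightest and 3 dimmest, the paralogs with their core genes, a fixed set, and up to 4 genes of each other list with the lowest p; the other members that passed were named after their values were seen. The alternatives changed the probe set choice, filter, variance model, scaling, arrays and a block for the number ranges.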

Additional observations from a re-analysis of the deposited data

Results flagged for a closer look

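In 2 of 108 sets of 4 values (named members and the core mean, in each group) the highest or lowest array stood apart by Dixon's criterion, where chance gives about 1 in 20. Rps4x was at 13.159 on WT Treg 1, below the other WT Treg arrays at 13.253 to 13.269. Rps27l was at 10.805 on KI Treg 2, above the other KI Treg arrays at 10.532 to 10.571. The cause was not tested in either.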

How the results depend on the processing

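Of 289 alternative values for the counts of members called and the members' median differences, 277 stayed within 1.5 times the count or within the replicate spread of the median. The exceptions for WT Tregs against WT Tconv, where 13 members were called, were 22 with the mean of a gene's probe sets, 20 with the probe set of largest variance (11 of the 13 were in each), 30 with every probe set on its own, 6 without the variance trend and 21 with array weights; of all features tested 33.2%, 33.5%, 30.4%, 34.2% and 41.9% were called in these fits. For KI Tregs against KI Tconv, where 19 were called, they were 33 with every probe set, 12 without the trend and 32 with array medians subtracted (of all features 37.2%, 40.7% and 43.8%), and a median of -0.030 after another quantile normalisation. For KI against WT Tregs they were 1 call with array weights (of all genes 21.1%) and a median of -0.028 with array medians subtracted, and for the interaction 1 call with array weights (5.57%). In the WT fits named above, 17.4%, 16.7%, 15.7%, 17.7% and 22.3% of all features were lower in Tregs, in the same order. With every probe set, 28 of the 30 WT calls were falls. The causes were not tested, except that fitting every probe set gives 127 tests in place of 73. Leaving out each array in turn gave 10 to 15 calls in WT and 16 to 24 in KI cells. Both genotype comparisons and the interaction had 0 in each of these fits. Of all genes 30.0% to 36.6% were called in WT and 35.5% to 41.1% in KI cells. For KI against WT the shares were 1.24% to 7.02% in Tregs and 0.0860% to 0.799% in Tconv. For the interaction they were 0.455% to 1.28%. The members' median then ran from -0.073 to -0.044 in WT, from -0.075 to -0.045 in KI cells, from -0.0087 to 0.021 for KI against WT Tregs, from -0.0063 to 0.013 for Tconv and from -0.014 to 0.011 for the interaction. Of 32 named calls, 13 held under each alternative run and 2 reversed, both with the probe set of largest variance: Rps24 in WT at 0.034 and Rpl24 in KI cells at -0.030. Without the arrays numbered 24 to 27, chosen after seeing the data, 1 member rose and 12 fell in WT (of all genes 16.8% and 19.2%) and 2 rose and 11 fell in KI cells (23.3% and 16.7%). No paired analysis was possible because the labels give no replicate numbers shared between groups; blocks for the number ranges moved no count of members called by over 1.5 times. With 4 arrays per group the 95% interval of a member had a median half-width of 0.086 on the log2 scale, which bounds what could be detected.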
